A study of Mus musculus with 137 samples.

Results

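The solute carriers are the large class of membrane proteins that move sugars, amino acids, vitamins, metal ions and metabolites across cell and organelle membranes. The 162 genes described here were chosen by their level: each has a symbol that begins with Slc and a digit, and a mean of at least 5 counts per 1000000 counts (CPM, the share of the library total that a gene's estimated count makes up) over all single-embryo libraries. The symbols searched numbered 378, of which 376 had a count in at least 1 library, and the table holds 36043 genes in all. The mean pools 3 treatments, so a gene could enter through 1 of them: 109 members had at least 5 CPM on average in every treatment, and 53 were under 5 CPM in at least 1 of them. Just inside the limit stood Slc39a7 at a mean of 5.26 CPM and Slc22a22 at 5.27 CPM, and just outside it Slc43a2 at 4.96 CPM and Slc6a4 at 4.93 CPM. Of the members, 32 belong to the mitochondrial carrier family Slc25, and 4 bear an Slc symbol without being transporters themselves, such as Slc4a1ap (an adaptor named for its binding to an anion exchanger) and Slc7a6os (a gene on the strand opposite Slc7a6).

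The early mouse embryo starts from stores of maternal RNA and begins to transcribe its own genome around the first cleavage. During this time it takes up pyruvate, lactate and amino acids rather than mainly glucose, and it uses glycine and other small solutes to control its volume. NR5A2 is a nuclear receptor that binds DNA as a monomer and is named in the title of the series as an activator of the zygotic genome; SR1848 is a small molecule that inhibits it.

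Each library is 1 embryo of the B6129F1 cross at the 2-cell stage. In all 3 groups zygotes were isolated 5 hours post fertilization (hpf) and cultured in KSOM, and the medium was supplemented from 6 hpf. The group SR1848_NR5A2OE received 10 µM SR1848 and NR5A2 mRNA at 500 ng/µl, and is called here SR1848 with NR5A2 mRNA; 67 libraries have this label (27 in experiment 1 and 40 in experiment 2). The group SR1848 received 10 µM SR1848 (41 libraries, 17 and 24), and the group DMSO received the solvent at 0.1% (29 libraries, 19 and 10). The samples analysed here hold no embryo injected with another mRNA and none injected without SR1848, so NR5A2 and the injection cannot be told apart. CPM is a share of a library: less of a message per embryo and more of all other messages cannot be told apart.

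In 16 libraries of experiment 2 the level of Nr5a2, whose mRNA was injected, or of GFP went against the label. The libraries labelled SR1848 with NR5A2 mRNA 1 to 8 had Nr5a2 at 81.6 to 155 CPM and at most 0.452 CPM of GFP, and those labelled DMSO 1 to 8 had Nr5a2 at 88.3 to 5395 CPM and GFP at 47.4 to 7075 CPM. The library labelled DMSO 4 had the lowest Nr5a2 and the lowest GFP of these 8; its Nr5a2 lies within the 83.7 to 189 CPM of the DMSO embryos kept, and its GFP is above their highest of 0.765 CPM. These 16 libraries, and 7 with a low total or few detected genes, stay out of the main values, which rest on 56 embryos with SR1848 and NR5A2 mRNA (26 and 30 by experiment), 40 with SR1848 (16 and 24) and 18 with DMSO (16 and 2). In the 114 libraries that remain, totals ran between 3383462 and 9317721 counts, and Nr5a2 had a median of 3093 CPM with NR5A2 mRNA, 13.2 CPM with SR1848 and 111 CPM with DMSO. GFP reached 100 CPM in 42 of the 56 injected embryos and not in the other 14 (9 of 26 in experiment 1 and 5 of 30 in experiment 2). Nr5a2 ran from 5.37 to 8463 CPM in the 56, and it was also under 100 CPM in 14, with the same split by experiment. These embryos were kept under their label, so injected here means labelled as injected, and not all 56 showed the injected mRNA. Calls made on all libraries as labelled are given beside the main counts. Markers of the oocyte and early embryo were present in every group, with summed medians of 3560 CPM with NR5A2 mRNA, 4001 CPM with SR1848 and 1302 CPM with DMSO.

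Of all counts, the members together took less in both SR1848 groups than with DMSO. Their summed level ran from 2729 to 7606 CPM (median 5720) in embryos with SR1848 and NR5A2 mRNA, from 4529 to 7851 CPM (median 6053) with SR1848, and from 9406 to 12236 CPM (median 10475) with DMSO. All 40 SR1848 embryos and all 56 injected ones lay below every DMSO embryo. The lowest injected embryo, of experiment 1, stood apart from its group, with 8357 genes detected against a median of 16184 over all libraries. The sums of the 16 libraries kept apart also went against their labels, with 7886 to 10214 CPM in those labelled SR1848 with NR5A2 mRNA and 4746 to 6125 CPM in those labelled DMSO.

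**Figure D1:**
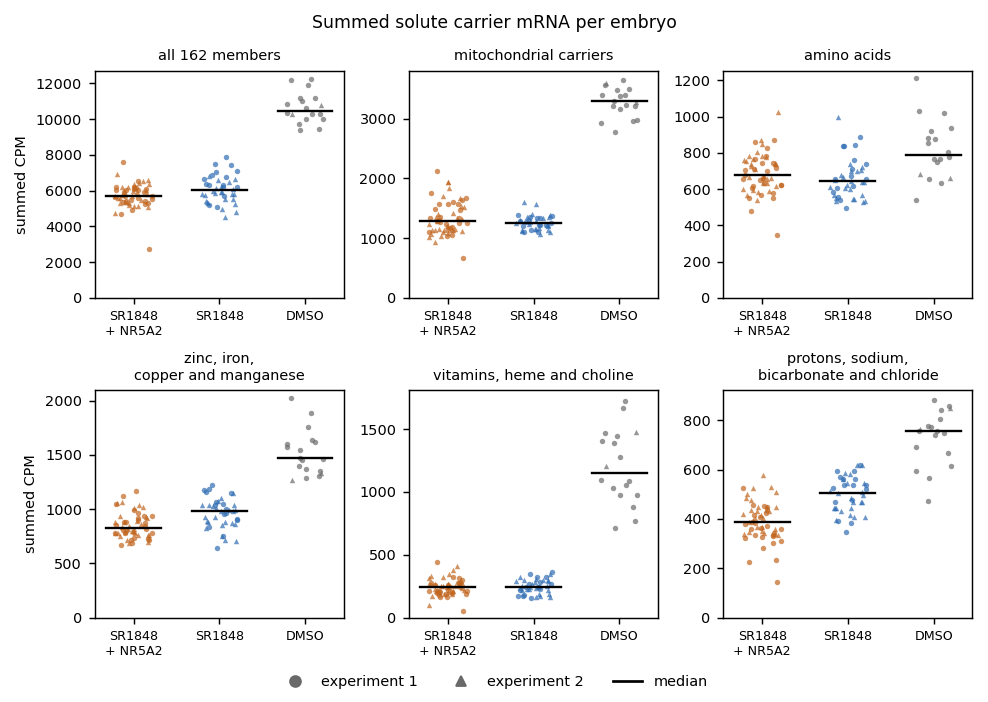
Summed level by embryo, in CPM, for all 162 members and for 5 substrate groups; each point is 1 embryo (circles, experiment 1; triangles, experiment 2), and horizontal lines are medians. For all members the medians are 5720 CPM with SR1848 and NR5A2 mRNA, 6053 CPM with SR1848 and 10475 CPM with DMSO, and the DMSO embryos sit above all others also for the mitochondrial carriers, the metal carriers and the vitamin carriers, but overlap them for the amino acid carriers.

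Different carriers led in each treatment. The 10 most abundant members held 37.1% of the members' counts with NR5A2 mRNA, 41.2% with SR1848 and 44.5% with DMSO. Of the 10 leaders with SR1848, 8 were also leaders with NR5A2 mRNA and 0 were leaders with DMSO; Slc25a20, the mitochondrial carnitine and acylcarnitine carrier, was the single leader shared by injected and DMSO embryos. Per length, in TPM (transcripts per 1000000 transcripts), Slc45a3 (a sugar transporter family member known as prostein) stood first with NR5A2 mRNA at a median level of 267 TPM and first with SR1848 at 406 TPM. With DMSO the leaders per length were Slc5a6 (the sodium-dependent transporter of biotin and pantothenate) at 511 TPM, Slc16a6 (a monocarboxylate transporter family member) at 444 TPM and Slc25a44 (the mitochondrial carrier of branched-chain amino acids) at 418 TPM.

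With SR1848 against DMSO, 66 members rose and 69 fell, and 27 did not pass the test (edgeR quasi-likelihood test, Benjamini-Hochberg adjustment over all 15097 genes tested, adjusted p under 0.05). Of all genes tested, 37.7% were called higher and 39.0% lower, beside 40.7% and 42.6% of the members, near the background. The counts by substrate class and family given below were not tested against the shares of all genes. The median log2 fold change was 0.12 over the members and -0.02 over all genes. On all libraries as labelled 62 members were higher and 65 lower. The split depends on the scaling: relative log expression scaling gave 53 higher and 78 lower, DESeq2 55 and 78, and maternal scaling, which sets a list of maternal transcripts equal across libraries, 15 and 116, with the median of all genes at -0.55 under relative log expression and -1.92 under maternal scaling. Every direction below is therefore relative to the TMM scaling of edgeR. All 162 members passed the filter on low counts; the 53 that were under 5 CPM in a treatment entered through the others, and among the 109 members above it in every treatment 45 rose and 46 fell. In 15 members over 10% of the exon length overlaps another gene, among them Slc39a7 (80.7%), Slc33a1 (32.0%) and Slc13a2 (26.2%), and reads of such genes may be shared.

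In 13 of the 162 members every SR1848 embryo was higher than every DMSO embryo, a pattern that 4.81% of all tested genes had. In 31 of the 162 every SR1848 embryo was lower than every DMSO embryo, a pattern that 13.0% of tested genes had. The shares are not of like genes, since members had to reach a mean of 5 CPM and tested genes did not. Some of the 31, such as Slc13a2 and Slc33a1, had medians of 0 CPM in both SR1848 groups. They entered through DMSO, which favours this pattern, and the difference from all genes was not tested. Between embryos of a group the members varied most in the injected group: the median coefficient of variation of a member's CPM was 69.9% with NR5A2 mRNA, 52.3% with SR1848 and 45.1% with DMSO.

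**Figure D2:**
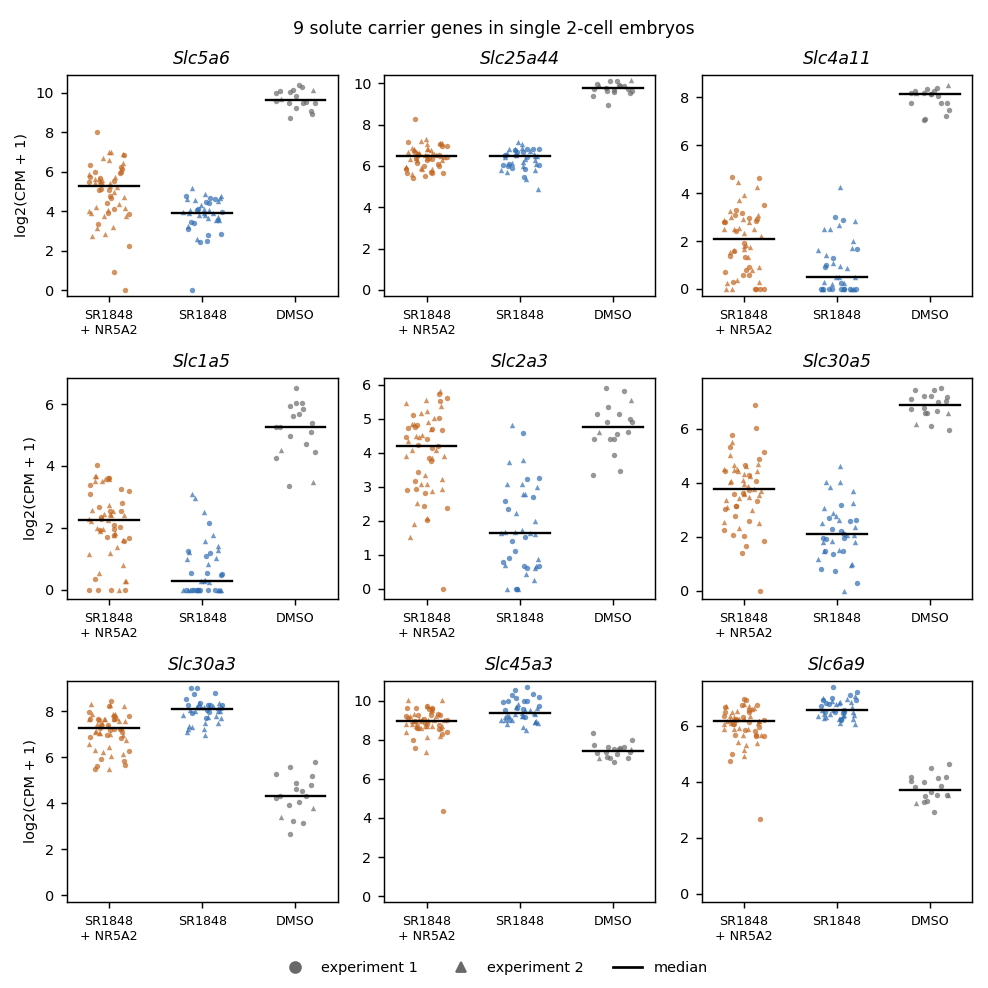
Level of 9 members by embryo, as log2(CPM + 1), with SR1848 and NR5A2 mRNA at the left, SR1848 in the middle and DMSO at the right; circles are embryos of experiment 1, triangles of experiment 2, and lines are medians. Slc5a6, Slc25a44 and Slc4a11 are lower in every SR1848 embryo than in every DMSO embryo, Slc30a3, Slc45a3 and Slc6a9 are higher in every one, and in Slc2a3 the injected embryos spread over the range of the DMSO embryos.

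The start regions of the members were searched for the site that NR5A receptors bind, written TCAAGGNCA, on both strands of the 300 bases around each RefSeq gene start (250 before it and 50 after it, GRCm38.p6). A window was found for 122 members and none for 40. The site stood in a window of 6 of the 122 members (4.92%) and of 503 of all 27025 genes with a window (1.86%). A gene with several windows counts once. Among members lower with SR1848 the site was found for 1 of 51, among those higher for 4 of 53, and among those not called for 1 of 18. A match is a description of letters and no measure of binding. Shown are 2 windows with the site, 1 of a member that was higher and 1 of a member that was lower with SR1848, on the strand of the gene; capitals mark the site, which lies here on the opposite strand. In Slc44a5 (chr3:153973186-153973485, plus strand), a member of the choline transporter-like family, it begins 185 bases before the start, and in Slc25a30 (chr14:75786988-75787287, minus strand), a mitochondrial carrier family member, 82 bases before it.
Slc44a5: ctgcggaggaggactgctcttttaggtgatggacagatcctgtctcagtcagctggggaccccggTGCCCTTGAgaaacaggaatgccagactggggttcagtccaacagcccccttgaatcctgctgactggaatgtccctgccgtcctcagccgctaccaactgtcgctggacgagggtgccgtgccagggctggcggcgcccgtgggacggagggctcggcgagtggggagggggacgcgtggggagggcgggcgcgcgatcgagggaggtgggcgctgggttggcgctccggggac
Slc25a30: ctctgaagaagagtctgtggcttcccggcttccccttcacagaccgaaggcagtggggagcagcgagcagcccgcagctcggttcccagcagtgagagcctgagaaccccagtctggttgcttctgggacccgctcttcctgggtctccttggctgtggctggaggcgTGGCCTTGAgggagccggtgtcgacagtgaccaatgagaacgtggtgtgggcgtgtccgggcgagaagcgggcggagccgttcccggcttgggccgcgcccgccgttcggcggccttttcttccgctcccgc
Slc44a5 was higher with SR1848 by 3.37 ± 0.39 (log2 fold change ± SE, adjusted p = 1.22e-13). Slc25a30 was among the 31 members that were lower in every SR1848 embryo, with a log2 fold change of -2.30.

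Among 10 transporters of vitamins, heme and choline, 3 rose and 5 fell with SR1848 (1 and 7 under maternal scaling), and their summed level had medians of 240 CPM with NR5A2 mRNA, 246 CPM with SR1848 and 1149 CPM with DMSO. Slc5a6 (chromosome 5, 31036036 to 31048924 on GRCm38, as for all positions here) had 0 to 35.5 CPM with SR1848 (median 14.3) and 417 to 1363 CPM with DMSO (median 801), a log2 fold change of -5.79 ± 0.33 (adjusted p = 6.1e-32). The groups did not overlap, and Slc5a6 made up most of the summed level of this class with DMSO. Slc52a2, a riboflavin transporter, fell as well, with medians of 15.9 CPM with SR1848 and 62.2 CPM with DMSO. Slc23a2, which takes up vitamin C, had medians of 103 CPM with SR1848 and 116 CPM with DMSO and was not called (adjusted p = 0.504).

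Among 18 amino acid carriers, 10 rose and 5 fell with SR1848 (2 and 9 under maternal scaling), and the glycine transporter and the glutamate transporter moved in opposite directions. Slc6a9, the glycine transporter GLYT1, had 66.4 to 167 CPM with SR1848 (median 93.9) and 6.53 to 23.7 CPM with DMSO (median 12.2), a log2 fold change of 3.08 ± 0.18 (adjusted p = 3.98e-31). The groups did not overlap; exons of Slc6a9 overlap other genes over 30.2% of their length, and without strand the reads cannot be told apart there. Slc1a1, which takes up glutamate, aspartate and cysteine, had 0 to 19.0 CPM with SR1848 (median 6.52) and 138 to 442 CPM with DMSO (median 235), a log2 fold change of -5.55 ± 0.41 (adjusted p = 2.51e-24). Its exons overlap an antisense gene over 31.9% of their length. The protein-coding transcripts of Slc1a1 summed to medians of 0.106 CPM with SR1848 and 30.9 CPM with DMSO, where they held 17.0% of the gene's mean level. Slc1a5, the neutral amino acid exchanger ASCT2 that carries glutamine, fell by 5.38 ± 0.54 on the log2 scale (adjusted p = 1.78e-16), with medians of 0.226 CPM with SR1848 and 37.2 CPM with DMSO. The carriers of basic amino acids and proline, Slc7a2 and Slc6a7, rose by 1.83 ± 0.22 and 2.76 ± 0.34 (adjusted p = 1.41e-12 and 3.36e-12). Slc3a2, the heavy chain that brings several Slc7 partners to the membrane, fell by 0.48 ± 0.15 on the log2 scale (adjusted p = 0.00214). Within the Slc6 family of sodium- and chloride-coupled carriers 6 of 8 members rose and 1 fell (3 and 3 under maternal scaling).

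The summed level of the sugar carriers had medians of 660 CPM with NR5A2 mRNA, 760 CPM with SR1848 and 306 CPM with DMSO, and no SR1848 embryo lay below every DMSO embryo. Of these 8 carriers 4 rose and 2 fell with SR1848 (1 and 4 under maternal scaling). Slc45a3 (chromosome 1, 131962967 to 131982969) made up most of it, at 362 to 1675 CPM with SR1848 (median 661) and 116 to 319 CPM with DMSO (median 174), a log2 fold change of 2.31 ± 0.19 (adjusted p = 1.55e-21). Every SR1848 embryo was above every DMSO embryo; 13.5% of its exon length is shared with a predicted gene on the same strand. The facilitative glucose transporters moved in different directions. Slc2a1 (GLUT1) rose by 1.87 ± 0.27 (adjusted p = 1.15e-09), with medians of 41.2 CPM with SR1848 and 12.0 CPM with DMSO. Slc2a3 (GLUT3) fell by 2.75 ± 0.40 on the log2 scale (adjusted p = 9.93e-10), with medians of 2.13 CPM with SR1848 and 26.2 CPM with DMSO. Slc2a8 (GLUT8), an intracellular member, had 0 to 3.92 CPM with SR1848 and 10.8 to 62.8 CPM with DMSO, with no overlap. The rise of Slc2a1 was lost under maternal scaling, where its log2 fold change was -0.02.

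The mitochondrial carriers, which exchange metabolites across the inner mitochondrial membrane, numbered 32, of which 7 rose and 17 fell with SR1848 (3 and 28 under maternal scaling). Their summed medians were 1279 CPM with NR5A2 mRNA, 1254 CPM with SR1848 and 3293 CPM with DMSO, and every SR1848 embryo lay below every DMSO embryo. Slc25a44 (chromosome 3, 88410498 to 88425139) had 28.7 to 142 CPM with SR1848 (median 87.1) and 488 to 1145 CPM with DMSO (median 861), a log2 fold change of -3.34 ± 0.14 (adjusted p = 3.51e-44). The highest SR1848 embryo was far below the lowest DMSO embryo in this gene. Slc25a20 fell by 2.85 ± 0.40 on the log2 scale (adjusted p = 2.74e-10), with overlap: 16.2 to 273 CPM with SR1848 and 228 to 676 CPM with DMSO. The ADP/ATP carriers differed, since Slc25a4 fell by 2.24 ± 0.44 on the log2 scale (adjusted p = 3.27e-06) and Slc25a5 was not called (0.47 ± 0.23, adjusted p = 0.0518). Slc25a48, a choline carrier of the inner membrane, and Slc25a1, the citrate carrier, rose by 2.60 ± 0.17 and 3.19 ± 0.40 (adjusted p = 1.35e-28 and 5.95e-12).

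For zinc, iron, copper and manganese all 16 members were called, 6 higher and 10 lower with SR1848 (1 and 13 under maternal scaling, and 3 and 10 on all libraries as labelled). The Slc30 proteins carry zinc out of the cytosol and the Slc39 proteins carry it in, and of 8 Slc39 members 2 rose and 6 fell (0 and 8 under maternal scaling). Slc30a3 (chromosome 5, 31086106 to 31108237), which loads zinc into vesicles, had 125 to 517 CPM with SR1848 (median 273) and 5.34 to 54.9 CPM with DMSO (median 18.9), a log2 fold change of 3.83 ± 0.24 (adjusted p = 1.18e-28). Slc30a5 and Slc30a6, whose products form a dimer of the early secretory pathway, both fell, by 4.62 ± 0.37 and 5.52 ± 0.48 on the log2 scale (adjusted p = 3.69e-22 and 1.39e-19). Slc30a5 had medians of 3.26 CPM with SR1848 and 116 CPM with DMSO, and every SR1848 embryo was below every DMSO embryo in both genes. Slc39a10, a zinc importer and the most abundant of this class, had medians of 366 CPM with SR1848 and 269 CPM with DMSO (0.67 ± 0.12, adjusted p = 3.12e-07), a direction that turned to -1.25 under maternal scaling. Slc39a9, another importer, fell by 4.32 ± 0.34 on the log2 scale (adjusted p = 7.38e-23).

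Exchangers of protons, sodium, bicarbonate and chloride set the pH and the volume of the cell. Of 19 members 13 rose and 6 fell with SR1848 (2 and 9 under maternal scaling), yet the summed level was lower, with medians of 387 CPM with NR5A2 mRNA, 506 CPM with SR1848 and 757 CPM with DMSO. All 4 members of the Slc9 symbol family, sodium/proton exchangers in the main, rose, where maternal scaling gave 0 higher and 2 lower. Slc4a8, a sodium-driven chloride/bicarbonate exchanger, had 52.3 to 175 CPM with SR1848 (median 104) and 3.49 to 21.0 CPM with DMSO (median 11.1), a log2 fold change of 3.30 ± 0.20 (adjusted p = 3.25e-30). Slc4a11, a family member linked to proton and ammonia movement, had 0 to 17.9 CPM with SR1848 (median 0.409) and 132 to 368 CPM with DMSO (median 282), a log2 fold change of -7.22 ± 0.55 (adjusted p = 2.35e-23). Slc12a2, the cotransporter NKCC1 of sodium, potassium and chloride, had 0 to 27.4 CPM with SR1848 and 103 to 297 CPM with DMSO (log2 fold change -5.20 ± 0.40, adjusted p = 2.89e-23). These 3 genes had no overlap between the groups.

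The class of monocarboxylate and other carboxylate carriers was drawn by family, and it also holds the sulfate carriers Slc13a1 and Slc13a4 and the aromatic amino acid carrier Slc16a10. It had the lowest summed level with SR1848 relative to DMSO of the classes, with medians of 139 CPM with NR5A2 mRNA, 91.9 CPM with SR1848 and 660 CPM with DMSO; 2 of 10 members rose and 5 fell (1 and 7 under maternal scaling). Slc16a6 had 0 to 62.4 CPM with SR1848 (median 9.00) and 209 to 619 CPM with DMSO (median 381), a log2 fold change of -5.19 ± 0.44 (adjusted p = 2.47e-20); 23.5% of its exon length overlaps other genes. Slc16a1, the transporter MCT1 of lactate and pyruvate, had 0 to 48.5 CPM with SR1848 (median 6.25) and 42.3 to 256 CPM with DMSO (median 89.6), with slight overlap (-3.38 ± 0.51, adjusted p = 3.16e-09). Slc13a2, a sodium-coupled dicarboxylate transporter, was above 0 in 3 of 40 SR1848 embryos and had 21.6 to 54.7 CPM with DMSO. A single embryo held 71.3% of its SR1848 level, so its fitted fold change rests on few counts.

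The smaller classes held further members with wide shifts. Phosphate and osmolyte carriers fell in sum: Slc34a2, a sodium/phosphate cotransporter, had medians of 28.0 CPM with SR1848 and 542 CPM with DMSO (-3.39 ± 0.63, adjusted p = 9.16e-07), and Slc5a3, the myo-inositol transporter, 5.06 CPM with SR1848 and 87.3 CPM with DMSO (-3.90 ± 0.40, adjusted p = 5.82e-16). Slc6a6, the taurine transporter, fell by 1.83 ± 0.17 on the log2 scale (adjusted p = 9.11e-18). Slc20a1, another phosphate transporter, rose by 1.93 ± 0.22 (adjusted p = 6.43e-14). Slc29a2, a nucleoside transporter, and Slc33a1, which carries acetyl-CoA into the endoplasmic reticulum, fell by 5.83 ± 0.64 and 4.81 ± 0.62 on the log2 scale (adjusted p = 1.83e-14 and 1.26e-11); Slc33a1 was at 0 in 22 of 40 SR1848 embryos and had 19.5 to 68.0 CPM with DMSO. Slc8b1, the sodium/calcium exchanger of mitochondria, had 0 to 1.65 CPM with SR1848 and 4.27 to 66.2 CPM with DMSO (-6.24 ± 0.44, adjusted p = 1.65e-25). Among peptide transporters Slc15a5 and Slc15a2 rose by 2.48 ± 0.21 and 2.18 ± 0.23 (adjusted p = 4.03e-21 and 1.22e-15). In the Slc35 family, which carries nucleotide sugars and related molecules, 6 of 13 rose and 6 fell (1 and 11 under maternal scaling), among them Slc35a4 (2.03 ± 0.15, adjusted p = 2.25e-24) and Slc35e2 (-3.00 ± 0.29, adjusted p = 2.29e-17). Of the remaining classes, 2 of 5 lipid, acyl and sterol carriers rose and 2 fell, and 2 of 4 organic ion carriers rose and 1 fell.

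**Figure D3:**
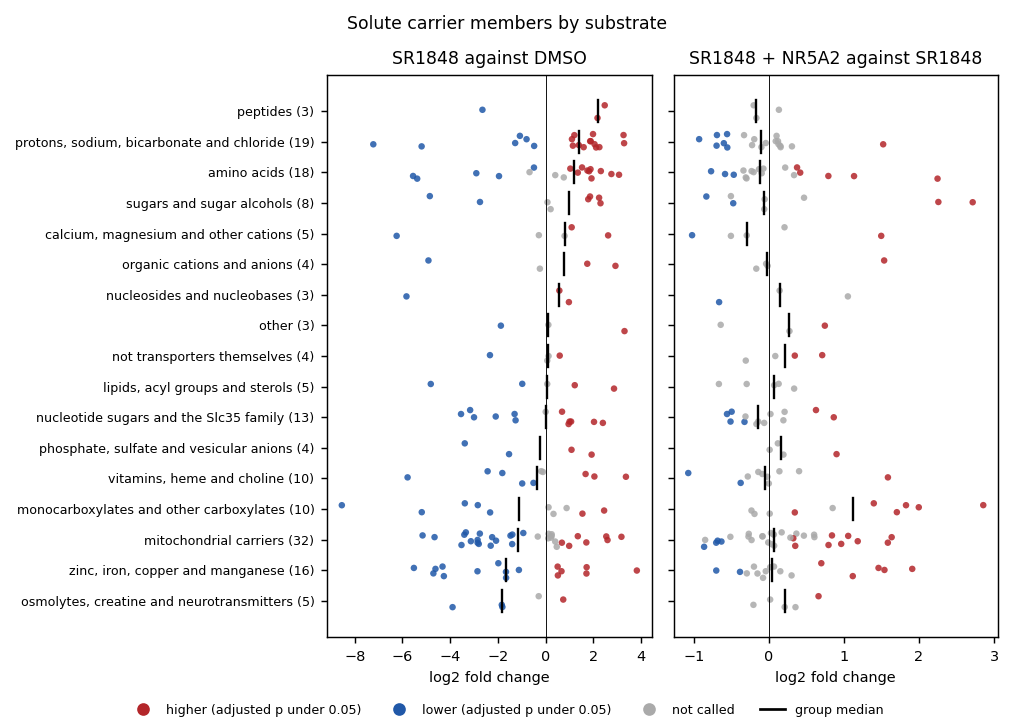
Log2 fold change of each member (horizontal) by substrate group (rows, with the number of members) for SR1848 against DMSO at the left and SR1848 with NR5A2 mRNA against SR1848 at the right; each point is 1 member, red higher and blue lower at an adjusted p under 0.05, grey not called, and bars are group medians. With SR1848 17 of 32 mitochondrial carriers are lower and 13 of 19 proton and ion exchangers higher, and with NR5A2 mRNA 6 of 10 members of the carboxylate class are higher. Over all genes tested 37.7% are higher and 39.0% lower with SR1848, and 29.7% and 14.8% with NR5A2 mRNA.

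With SR1848 and NR5A2 mRNA against SR1848 alone, 38 members rose and 25 fell, and 99 did not pass the test. Over all genes 29.7% were called higher and 14.8% lower, beside 23.5% and 15.4% of the members. The median log2 fold change was 0.02 over the members and 0.12 over all genes. On all libraries as labelled 43 members rose and 26 fell. The split moves with the scaling and the tool: 49 rose and 19 fell under relative log expression scaling, 77 and 7 under maternal scaling, 52 and 22 with DESeq2, and 29 and 35 with limma voom; the median of all genes was 0.24 under relative log expression and 0.57 under maternal scaling. With the 42 injected embryos that had at least 100 CPM of GFP, 31 rose and 26 fell.

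Of the 10 members of the carboxylate class 6 rose and 0 fell with NR5A2 mRNA, where 29.7% of all genes were called higher and 14.8% lower. The 6 were 4 of the 6 Slc16 members, Slc13a2 and the sulfate carrier Slc13a4. With the 42 embryos of high GFP 3 of the 10 were higher and 0 lower, so this count depends on which injected embryos are taken. Slc16a5, a family member of the monocarboxylate carriers known to carry drugs, had 0 to 35.6 CPM with NR5A2 mRNA (median 7.20), against 0 to 9.00 CPM with SR1848 (median 0.113), a log2 fold change of 2.85 ± 0.47 (adjusted p = 1.98e-07); with DMSO its median was 5.67 CPM. Slc16a6 and Slc16a1 rose by 1.70 ± 0.32 and 1.40 ± 0.37 (adjusted p = 4.5e-06 and 0.00112), but their medians with NR5A2 mRNA, 18.6 CPM and 12.4 CPM, stayed far under those with DMSO. Slc13a4, a sodium-coupled sulfate transporter of the same family as the dicarboxylate carriers, rose by 2.00 ± 0.25 (adjusted p = 3.65e-11), with medians of 13.8 CPM with NR5A2 mRNA and 3.62 CPM with SR1848, while SR1848 against DMSO did not pass the test (adjusted p = 0.735). With the 42 embryos of high GFP the log2 fold changes of Slc16a1 and Slc13a2 lost their calls, at 0.25 (adjusted p = 0.55) and 0.07 (adjusted p = 0.901). Slc13a2 was above 0 in only 14.3% of the injected embryos and had a median of 0 CPM there.

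Slc5a6, Slc1a5 and Slc4a11, which SR1848 lowered, were higher with NR5A2 mRNA but did not return to the DMSO level. Slc5a6 had 0 to 255 CPM with NR5A2 mRNA (median 37.6), against 0 to 35.5 CPM with SR1848 (median 14.3), a log2 fold change of 1.58 ± 0.24 (adjusted p = 1.87e-08); the groups overlapped, and every injected embryo was under the lowest DMSO embryo at 417 CPM. These Slc5a6 values pool injected embryos with and without high GFP. The Slc5a6 median was higher in the injected embryos without high GFP than in those with it, as given below. The rise can therefore not be ascribed to the embryos that showed the injected mRNA. Slc1a5 had medians of 3.73 CPM with NR5A2 mRNA and 0.226 CPM with SR1848 (2.25 ± 0.39, adjusted p = 8.54e-07). Slc4a11 had medians of 3.22 CPM with NR5A2 mRNA and 0.409 CPM with SR1848 (1.52 ± 0.40, adjusted p = 0.000824). The genes of the secretory zinc pair, Slc30a5 and Slc30a6, rose by 1.91 ± 0.27 and 1.46 ± 0.36 (adjusted p = 2.76e-09 and 0.000455), as sums over all their transcripts. Their protein-coding transcripts summed to medians of 1.55 CPM with NR5A2 mRNA, 0.590 CPM with SR1848 and 104 CPM with DMSO for Slc30a5, and to 0.523 CPM, 0 CPM and 25.9 CPM in the same order of groups for Slc30a6. Slc25a44 had medians of 86.9 CPM with NR5A2 mRNA and 87.1 CPM with SR1848 and was not called (0.17 ± 0.10, adjusted p = 0.16).

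The genes Slc2a3 and Slc37a1 reached medians near or above those with DMSO when all their transcripts were summed, but most of that level was in transcripts with a retained intron. Slc2a3 had 0 to 55.1 CPM with NR5A2 mRNA (median 17.5), against 0 to 27.0 CPM with SR1848 (median 2.13), a log2 fold change of 2.26 ± 0.31 (adjusted p = 1.32e-09), and its DMSO median was 26.2 CPM (injected against DMSO -0.49 ± 0.38, adjusted p = 0.231). The Slc2a3 median, too, was higher in the injected embryos without high GFP than in those with it. A retained-intron transcript held 82.9% of the level of Slc2a3 with NR5A2 mRNA. The protein-coding transcripts of Slc2a3 summed to a median of 0 CPM with NR5A2 mRNA, 0 CPM with SR1848 and 19.7 CPM with DMSO. Slc37a1, which exchanges phosphorylated glucose for phosphate in the endoplasmic reticulum, had 2.02 to 412 CPM with NR5A2 mRNA (median 40.1), against 0 to 78.7 CPM with SR1848 (median 6.27), a log2 fold change of 2.71 ± 0.32 (adjusted p = 3.22e-12). Its DMSO median was 9.16 CPM, below injected embryos by the test (2.80 ± 0.47, adjusted p = 6.28e-08), and SR1848 did not pass the test against DMSO (0.08 ± 0.41, adjusted p = 0.861). A retained-intron transcript held 87.5% of it with NR5A2 mRNA, and its protein-coding transcripts reached at most 3.85 CPM there, 2.99 CPM with SR1848 and 9.76 CPM with DMSO. Slc25a20 and Slc25a4 of the mitochondrial carriers rose by 1.58 ± 0.29 and 1.63 ± 0.33 (adjusted p = 3.76e-06 and 1.84e-05), while Slc25a5 fell by 0.86 ± 0.15 on the log2 scale (adjusted p = 1.35e-06).

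Of the 38 members that rose with NR5A2 mRNA, 14 had a leading transcript that is not annotated as protein coding, against 4 of the 25 that fell and 18 of the 99 not called. Slc13a4 and Slc25a20 were led by retained-intron transcripts too, and their protein-coding transcripts held 3.03% and 7.35% of the gene's level with NR5A2 mRNA. In Slc16a5 and Slc1a5 they held 32.7% and 40.8%. In Slc5a6, Slc16a6 and Slc16a1, by contrast, protein-coding transcripts held 99.5%, 99.6% and 100% with NR5A2 mRNA. With SR1848 the leading transcript was not coding in 12 of the 66 members higher against DMSO and 13 of the 69 lower. Among the 27 not called it was so in 6. Protein-coding transcripts held 27.6% of Slc25a20 with SR1848 and 14.9% with DMSO. In the same order they held 15.0% and 10.8% of Slc15a2, and 40.3% and 51.8% of Slc2a1. These shares of the group mean are estimates of kallisto, read after the results were seen and given without a test.

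Several carriers that were higher with SR1848 fell with NR5A2 mRNA, by less than 1 on the log2 scale. Slc30a3 had 43.8 to 344 CPM with NR5A2 mRNA (median 151), against 125 to 517 CPM with SR1848 (median 273), a log2 fold change of -0.70 ± 0.14 (adjusted p = 1.19e-05). The groups overlapped, and the injected median stayed well above the DMSO median of 18.9 CPM. Slc2a1, Slc7a2, Slc4a8 and Slc6a9 fell by 0.83 ± 0.17, 0.77 ± 0.14, 0.60 ± 0.12 and 0.47 ± 0.11 on the log2 scale (adjusted p = 3.01e-05, 2.14e-06, 9.55e-06 and 0.000151). Of the 19 proton and ion exchangers 1 rose and 6 fell, where maternal scaling gave 6 higher and 2 lower. Slc52a2, the riboflavin transporter, was lower again with NR5A2 mRNA, at a median of 5.57 CPM, against 15.9 CPM with SR1848 (-1.07 ± 0.20, adjusted p = 1.97e-06), so it fell in both comparisons. Slc41a2, a magnesium transporter, fell by 1.02 ± 0.28 on the log2 scale (adjusted p = 0.00138).

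Some members had different medians in injected embryos with and without GFP. Slc16a5 had a median of 9.24 CPM in the 42 embryos with at least 100 CPM of GFP and 0.336 CPM in the other 14, and Slc30a3 had 183 CPM in those 42 and 81.0 CPM in the 14. Slc5a6 and Slc2a3 went the other way, with 28.3 CPM and 13.7 CPM in the 42 and 72.2 CPM and 35.6 CPM in the 14. For both genes the median of the 14 thus stood further above the SR1848 median than that of the 42. These values are given without a test, and the part of GFP in the results was not tested beyond the counts with the 42 embryos. Slc2a1, Slc25a5 and Slc5a6 were each at 0 CPM in 1 of the 56 injected embryos.

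Against DMSO, embryos with SR1848 and NR5A2 mRNA had 66 members higher, 65 lower and 31 not called, where 42.4% of all genes were called higher and 34.6% lower. The median log2 fold change was 0.15 over the members and 0.32 over all genes. This comparison shares its DMSO embryos with that of SR1848 against DMSO and its injected embryos with that against SR1848. On all libraries as labelled 55 members were higher and 50 lower.

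The comparisons above share the SR1848 embryos, so the members lower or higher with SR1848 against DMSO in experiment 1 were also read with NR5A2 mRNA against SR1848 in experiment 2. Of 62 members that fell in experiment 1, 14 were higher with NR5A2 mRNA in experiment 2 and 3 were lower, where 23.7% of all such genes were called higher and 9.72% lower. The 14 include Slc5a6, Slc1a5, Slc2a3, Slc16a5, Slc16a6, Slc30a5, Slc30a6 and Slc13a2, and the 3 lower ones were Slc52a2, Slc31a1 and Slc25a32, the last 2 named after their values were seen. The protein-coding transcripts of Slc2a3, Slc30a6 and Slc13a2 had medians of 0, 0.523 and 0 CPM over all injected embryos kept. Of 67 members that rose in experiment 1, 10 were lower with NR5A2 mRNA in experiment 2 and 5 were higher, where 23.2% of all such genes were called lower and 9.10% higher. The 10 include Slc30a3, Slc2a1, Slc6a9, Slc4a8, Slc7a2 and Slc26a6, an anion exchanger; of the named ones Slc2a1, Slc7a2 and Slc26a6 turn negative with SR1848 under maternal scaling. Median log2 fold changes in experiment 2 were 0.29 for the 62 members and 0.33 for all genes lower in experiment 1, and -0.09 for the 67 members and -0.12 for all genes higher in experiment 1. As shares, 22.6% of the 62 members were higher and 4.84% lower, and 7.46% of the 67 members were higher and 14.9% lower; the differences from all genes were not tested.

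**Figure D4:**
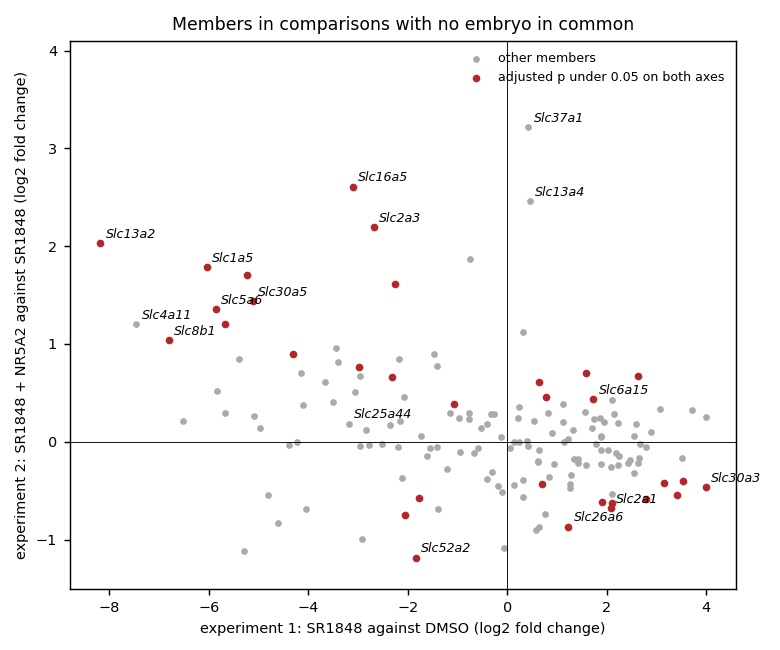
Log2 fold change of SR1848 against DMSO in experiment 1 (horizontal) and of SR1848 with NR5A2 mRNA against SR1848 in experiment 2 (vertical); each point is 1 member, red where the adjusted p is under 0.05 on both axes, and no embryo enters both axes. Of 62 members lower on the horizontal axis 14 are called higher on the vertical one, and Slc37a1 and Slc13a4 lie high near a horizontal value of 0.

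The difference between experiments in the response to NR5A2 mRNA was called for 1 member, Slc45a3, where 1.56% of all genes (235) were called. Fitted in each experiment alone, it fell by 0.92 on the log2 scale in experiment 1 and had a log2 fold change of -0.17 in experiment 2; the difference in the joint fit of both was 0.83 ± 0.23 (adjusted p = 0.0384). Next came Slc35a4 at 0.56 (adjusted p = 0.0953) and Slc37a3 at 0.76 (adjusted p = 0.0964), which did not pass.

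For 36 of the 162 members the transcript with the highest level differed between SR1848 and DMSO embryos. The same count was not made over all genes, so whether this share is particular to the carriers is not known. The split of a gene's reads between transcripts is an estimate of kallisto, and the members shown were chosen after these values were seen, with no test. In Slc3a2, the heavy chain of amino acid exchangers, the transcript that leads with DMSO held a median of 21.7% of the gene's level with NR5A2 mRNA, 15.6% with SR1848 and 64.0% with DMSO. The transcript that leads with SR1848, whose start lies 894 bases away on chromosome 19, held 57.5% with NR5A2 mRNA, 73.5% with SR1848 and 28.1% with DMSO. The DMSO leader ran from 5.63 to 43.4 CPM with SR1848 and from 49.8 to 195 CPM with DMSO, without overlap, while the gene as a whole fell by 0.48 on the log2 scale. In Slc44a2, a choline transporter-like protein, the DMSO leader held a median of 0% with NR5A2 mRNA, 0% with SR1848 and 61.8% with DMSO (9.84 to 84.8 CPM). In single embryos it reached 30.0 CPM (89.8% at most) with NR5A2 mRNA and 22.6 CPM (84.8% at most) with SR1848. The SR1848 leader, whose start lies 17130 bases away on chromosome 9, held a median of 77.3% with NR5A2 mRNA, 93.3% with SR1848 and 29.4% with DMSO. In Slc35b4, a carrier of nucleotide sugars, the shares lay close together: of the group mean, the SR1848 leader held 38.0% with NR5A2 mRNA, 45.1% with SR1848 and 39.6% with DMSO, and the DMSO leader 44.6% with NR5A2 mRNA, 43.6% with SR1848 and 46.8% with DMSO. In Slc10a3 and Slc37a3 the starts of the leading transcripts lie 44 and 3 bases apart. In Slc37a3 the DMSO leader, annotated for nonsense-mediated decay, held 16.3% with NR5A2 mRNA, 14.3% with SR1848 and 47.9% with DMSO, while Slc37a3 as a gene was not called (0.22 ± 0.19, adjusted p = 0.291).

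**Figure D5:**
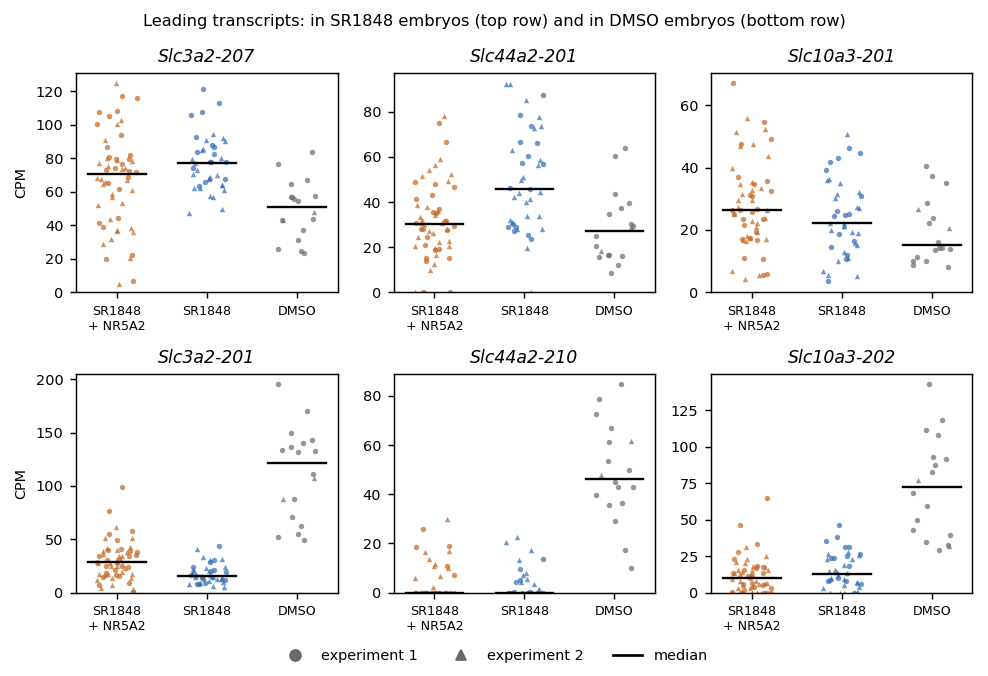
Level by embryo, in CPM, of the transcript that leads in SR1848 embryos (top) and of the one that leads in DMSO embryos (bottom) of Slc3a2, Slc44a2 and Slc10a3; circles are embryos of experiment 1, triangles of experiment 2, and lines are medians. The DMSO leader of Slc3a2 has a median of 28.4 CPM with NR5A2 mRNA, 15.4 CPM with SR1848 and 122 CPM with DMSO.

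Genes that work beside the carriers were read from lists of the same pathways. With SR1848 37.7% of all genes tested were called higher and 39.0% lower, and with NR5A2 mRNA against SR1848 29.7% and 14.8%. Differences of the lists from these shares were not tested. Of 22 tested genes of the amino acid response and serine synthesis, 6 rose and 11 fell with SR1848, led by Psat1 and Phgdh, enzymes of serine synthesis, with log2 fold changes of -6.77 and -4.43; with NR5A2 mRNA against SR1848 8 rose and 6 fell. Of 19 partner and accessory genes 6 rose and 8 fell with SR1848, among them Bsg, the chaperone of MCT1, at 0.78 and Atp1b3, a sodium pump subunit, at -3.19. Of 31 transporters with other symbols 7 rose and 19 fell with SR1848, among them Mpc2, a subunit of the mitochondrial pyruvate carrier, at -4.54. Of 20 genes of the lysosome and mTOR 8 rose and 6 fell, with Rragc, a nutrient-sensing GTPase, at 1.49. Of 12 genes of zinc and metal handling 4 rose and 6 fell with SR1848, and 7 rose and 0 fell with NR5A2 mRNA. In this list Mt2, a metallothionein, had log2 fold changes of -2.81 with SR1848 and 2.48 with NR5A2 mRNA against SR1848, and Tfrc, the transferrin receptor, had -4.43 with SR1848. Of 69 maternal transcripts 64 were higher with SR1848 and 41 lower with NR5A2 mRNA, with summed medians of 56452 CPM with NR5A2 mRNA, 72784 CPM with SR1848 and 20021 CPM with DMSO; their part in the members' directions was not tested.

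Markers of other cells were summed by embryo. The 10 cumulus and granulosa genes summed to 1.53 to 61.6 CPM with NR5A2 mRNA, 0.922 to 216 CPM with SR1848 and 40.8 to 148 CPM with DMSO, with 4, 4 and 5 of the 10 at a median of 0. Amhr2 alone had a median of 87.1 CPM with DMSO. Blood globins summed to medians of 186 CPM with NR5A2 mRNA, 27.0 CPM with SR1848 and 15.0 CPM with DMSO, and sperm markers to 2.39, 2.00 and 0.353 CPM in the same order of groups. Their part in the results was not tested.

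Some members passed the limit through a few of the 7 low libraries. Slc6a20b, a proline and glycine carrier, had a mean of 246 CPM over all libraries but a median of 11.3 CPM, and 1 low library labelled SR1848 with NR5A2 mRNA held 40.0% of its level at 13478 CPM. In the 114 libraries it rose by 1.04 ± 0.23 with SR1848 (adjusted p = 4e-05), and with all libraries its log2 fold change was -0.90. The 7 low libraries together held 95.2% of the level of Slc6a20b, 68.2% of that of Slc5a3 and 63.1% of that of Slc24a2, a sodium/calcium exchanger. Of the 162 members 153 would pass on the 114 libraries alone, and 124 had a mean of at least 10 CPM.

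The comparison of injected with uninjected SR1848 embryos was also deposited, per transcript, with no list of the libraries that entered it. Of its transcripts, 988 in the authors' deposited table belong to members and 672 of them have an adjusted p. The authors' deposited table calls 66 of these positive (9.82%) and 83 negative (12.4%), beside 13.8% and 10.1% of all 61900 transcripts with an adjusted p. The positive direction is that of higher with NR5A2 mRNA, since the Nr5a2 sequence has 1.61 in the authors' deposited table. Among member transcripts the authors' deposited table lists 3 of Slc37a1, at log2 fold changes of 2.20 for the most abundant and 3.47 and 4.60 for the others, and 2 of Slc45a3, at -0.71 for the most abundant and -2.56 for the other. These transcripts of Slc37a1 and Slc45a3 have the directions found here for the genes, and were picked from the called ones. Slc3a2 and Slc25a20 have called transcripts in both directions, and those of Slc5a6 have log2 fold changes that round to 0. More member transcripts were negative than positive in the deposited comparison, while 38 members rose and 25 fell here.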

How the data were processed

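Libraries were made from single embryos with SmartSeq2 and oligo-dT priming, without molecular identifiers, per the labels' protocols. Per the submitters' processing notes, bcl2fastq, Trim Galore 0.6.2, kallisto 0.46.1, R 3.5.1 and DESeq2 1.32.0 were used, and builds mm10 and hg19 are listed. The deposited table holds the authors' estimated counts for 119358 transcripts, of which 26.3% are not whole (tolerance 1e-09). The authors' deposited comparison gives a log2 fold change, a p-value and a mean normalised signal per transcript, per the file headers. Column prefixes C88 and ComS were read as SR1848 with NR5A2 mRNA and SR1848, by their numbers of columns and replicate numbers.

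Counts were summed by the symbols of the authors' table and rounded; 1835 entries without a symbol hold 0.820% of counts. Totals ran from 100883 to 9317721 (median 4694340). TPM uses GENCODE M21 lengths (GRCm38). Tests used edgeR 4.0.16 in R 4.3.3 (quasi-likelihood, TMM, filterByExpr, treatment and experiment as terms) with Benjamini-Hochberg adjustment over 15097 genes at 0.05. Libraries under 1 in 5 of the median total, or under 1 in 2 of the median of detected genes, were set aside as low. SE is the log2 fold change divided by the root of F. Alternatives were total count, relative log expression (RLE) and maternal scaling, no filter, DESeq2 1.42.0, limma 3.58.1 voom with and without a replicate block, each experiment, the low libraries, all libraries, and injected embryos with GFP. Tests were checked on simulated counts. P-values measure the spread between embryos, which may share parents.

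Members, substrate groups, lists and the libraries set aside were chosen with earlier results of these data known. Genes were named by rule: the 2 most abundant and the 2 with the smallest p in each substrate group, the 10 largest changes in each direction, those at the limit, and the 5 smallest p between experiments.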

Additional observations from a re-analysis of the deposited data

Results flagged for a closer look

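Slc45a3, the most abundant member, was marked because its response to NR5A2 mRNA on top of SR1848 differed between the experiments by the test of the difference itself. Fitted in each experiment alone, the log2 fold change was -0.92 in experiment 1 and -0.17 in experiment 2. The joint fit of both experiments gave a difference of 0.83 ± 0.23 on the log2 scale (experiment 2 minus experiment 1, edgeR interaction test, adjusted p = 0.0384), in a test that called 1.56% of all genes. The experiments also differ in the number of embryos (26 and 30 with NR5A2 mRNA, 16 and 24 with SR1848). Injected embryos under 100 CPM of GFP numbered 9 of 26 in experiment 1 and 5 of 30 in experiment 2, and the counts for Nr5a2 were the same. The injected embryo with 8357 genes detected is of experiment 1. The part of these and other differences between the experiments was not tested.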

How the results depend on the processing

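Of 167 results on named genes, 167 kept their direction and call without the filter and with total count scaling, 163 with limma voom, 160 with DESeq2, 157 with RLE scaling, 158 with the low libraries kept, 150 with all libraries, 161 with the replicate block, 158 in experiment 1 and 129 in experiment 2, where DMSO has 2 embryos. With maternal scaling 126 were kept, 19 lost their call and 22 turned. Counts that moved by over 1.5 times were as follows. For SR1848 against DMSO, all genes gave 3603 higher and 3829 lower in experiment 2, 1224 and 10509 under maternal scaling and 9034 lower without a filter, and members 15 and 116 under maternal scaling. For NR5A2 mRNA with SR1848 against SR1848, all genes gave 8066 and 590 under maternal scaling, 9504 higher without a filter and 1216 lower in experiment 1, and members 24 higher in experiment 2 and 77 and 7 under maternal scaling. For NR5A2 mRNA with SR1848 against DMSO, all genes gave 3684 and 3256 in experiment 2, 2170 and 8759 under maternal scaling and 9752 higher without a filter, and members 43 lower in experiment 2 and 23 and 106 under maternal scaling. Under maternal scaling, SR1848 against DMSO turned to -1.25 for Slc39a10, -0.85 for Slc6a20b, -0.089 for Slc7a2, -0.95 for Slc35a5, -1.34 for Slc4a1ap, -1.34 for Slc43a3, -0.96 for Slc29a3, -0.90 for Slc26a6, -0.18 for Slc22a23, -0.84 for Slc41a1, -0.024 for Slc2a1, -1.29 for Slc25a14 and -0.82 for Slc9b1. The comparison of NR5A2 mRNA with DMSO turned to -0.87 for Slc39a10, -0.47 for Slc6a20b, -0.51 for Slc7a2, -0.74 for Slc35a5, -0.59 for Slc4a1ap, -0.73 for Slc43a3, -0.20 for Slc41a1 and -0.44 for Slc2a1, and that with SR1848 to 0.041 for Slc35a4. Slc6a20b also turned against DMSO, to -0.90 for SR1848 with all libraries, and to -1.35 for SR1848 and -0.054 for NR5A2 mRNA with the low libraries kept. Since replicate numbers do not pair embryos (0 to 7 of 2 to 16 pairs had a correlation above 0.1), the replicate block, fitted in limma voom because the edgeR fit was not completed, is given once: it called 64 and 69 members for SR1848 against DMSO, 31 and 34 for NR5A2 mRNA against SR1848, and 64 and 68 for NR5A2 mRNA against DMSO. The block was planned, but limma voom, for it and for the fit without it, was chosen after seeing the data, and the cause of each change was not tested.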
